A study of Mus musculus with 3 samples.

Results

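The genes described here make cholesterol and fatty acids. They are taken by name, as enzymes of both pathways with the regulators that control them. The list holds 35 symbols for 34 genes, since Sc4mol is the older symbol of Msmo1. Of these, 33 have a probe set whose only annotated gene is the member, out of 19518 genes measured in this way. Acat2, the cytosolic thiolase that opens the sterol pathway, has no such probe set and is not analysed here.

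Cells build cholesterol from acetyl-CoA through mevalonate, squalene and lanosterol. The enzymes of this route are transcribed under the control of SREBP-2, the product of Srebf2, which Scap carries from the endoplasmic reticulum to the Golgi when membranes are poor in sterol and which the Insig proteins hold back when sterol is plentiful. SREBP-1, the product of Srebf1, acts more on fatty acid synthesis, and T lymphocytes use both arms when they grow and divide.

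The data are 3 Affymetrix Mouse Gene 1.0 ST arrays, 1 for each genotype: PLZF +/+, PLZF +/lu and PLZF lu/lu. The luxoid allele (lu) is a point mutation of Zbtb16, which encodes the transcription factor PLZF. All arrays were made from CD4+CD8- thymocytes, sorted and then sorted again, of female C57Bl/6 mice labelled adult and 3 to 4 weeks old. The labels call them gammadelta NKT cells, and all mice carried the Vγ1Vδ6.4 TCR transgenes and lacked Rag1. The cells thus bear 1 fixed receptor in a thymus without αβ T cells, and the sources used here do not say how many mice stand behind an array. With 1 array per genotype no difference has a replicate check, no test was run, and "higher" and "lower" compare arrays only. Intensities are linear and are listed in the order PLZF +/+, PLZF +/lu, PLZF lu/lu throughout, and they compare arrays at 1 probe set, not genes with each other. In RNA from a whole population, fewer cells of a type and less RNA per cell cannot be told apart.

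The array medians lay between 159.7 and 161.8, and 45.1% of probe sets had identical values on all 3 arrays. The 95th percentile of olfactory receptor probe sets, 108, was taken as the background level. Zbtb16 was at 8796 (PLZF +/+), 6143 (PLZF +/lu) and 2890 (PLZF lu/lu). The 6 measured T cell markers lay at 1840 or above on each array, while markers of macrophages and dendritic cells reached at most 386, those of erythroid cells 132, of thymic epithelium 185 and of adipocytes 212, with no difference over 0.15 on the log2 scale. Of 3 B cell and 3 endothelial markers, Cd79b (1406 to 1658) and Pecam1 (2643 on each array) were bright. Of 5 markers of CD4+CD8+ thymocytes, the coreceptor genes stepped up across the genotypes, Cd8b1 at 1290 (PLZF +/+), 2263 (PLZF +/lu) and 2958 (PLZF lu/lu) and Cd8a at 369, 519 and 601. The other markers did not have that order, with Dntt at 162, 157 and 210, Ptcra at 167 on each array, and Rag2 at 51.2, 49.5 and 51.2, under the background level.

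None of the 33 lipid synthesis genes differed by more than 2-fold between any pair of arrays. Over all measured genes 0.43% did so between PLZF +/+ and PLZF lu/lu, 0.133% between PLZF +/+ and PLZF +/lu, and 0.123% between PLZF +/lu and PLZF lu/lu. The largest difference among the members was 0.61 on the log2 scale, at Idi1. Small differences in which PLZF +/lu was lowest were seen at part of the members, mostly in the squalene and sterol branch (9 of 11). The others were 1 of 6 genes of the mevalonate branch, 1 of 5 regulators, 2 of 10 fatty acid genes and Stard4. The PLZF +/lu array lay below both others at 14 members (42.4%), against 11.4% of all measured genes and 17.4% of the 11859 genes above the background level. It lay strictly between the others at 5 members, against 11.4% of all genes, above both at 2, against 13.0%, and all 3 values were equal at 5, against 46.8%. At the remaining 7 members it was equal to 1 of the other arrays. Where it was lowest, the gap to the nearer array was small, with a median of 0.10 and a range of 0.027 to 0.32 on the log2 scale. PLZF +/+ was the highest array at 10 of these 14 genes and PLZF lu/lu at 1, Elovl6, while both were equal at 3.

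These shares depend on how equal values are treated. Quantile normalization, cyclic loess and centring on the median break the ties of the deposited values, and the share of all genes with PLZF +/lu lowest then became 36.2%, 45.8% and 71.6%. The share among the members became 48.5%, 48.5% and 78.8%, so that it lay close to that of all genes after loess and centring. When differences under 0.05 on the log2 scale were counted as equal, PLZF +/lu was lowest at 27.3% of members and 6.36% of all genes in the deposited values. With that tolerance the members' share lay between 24.2% and 39.4% after the 3 scalings, and that of all genes between 4.96% and 7.85%.

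**Figure D1:**
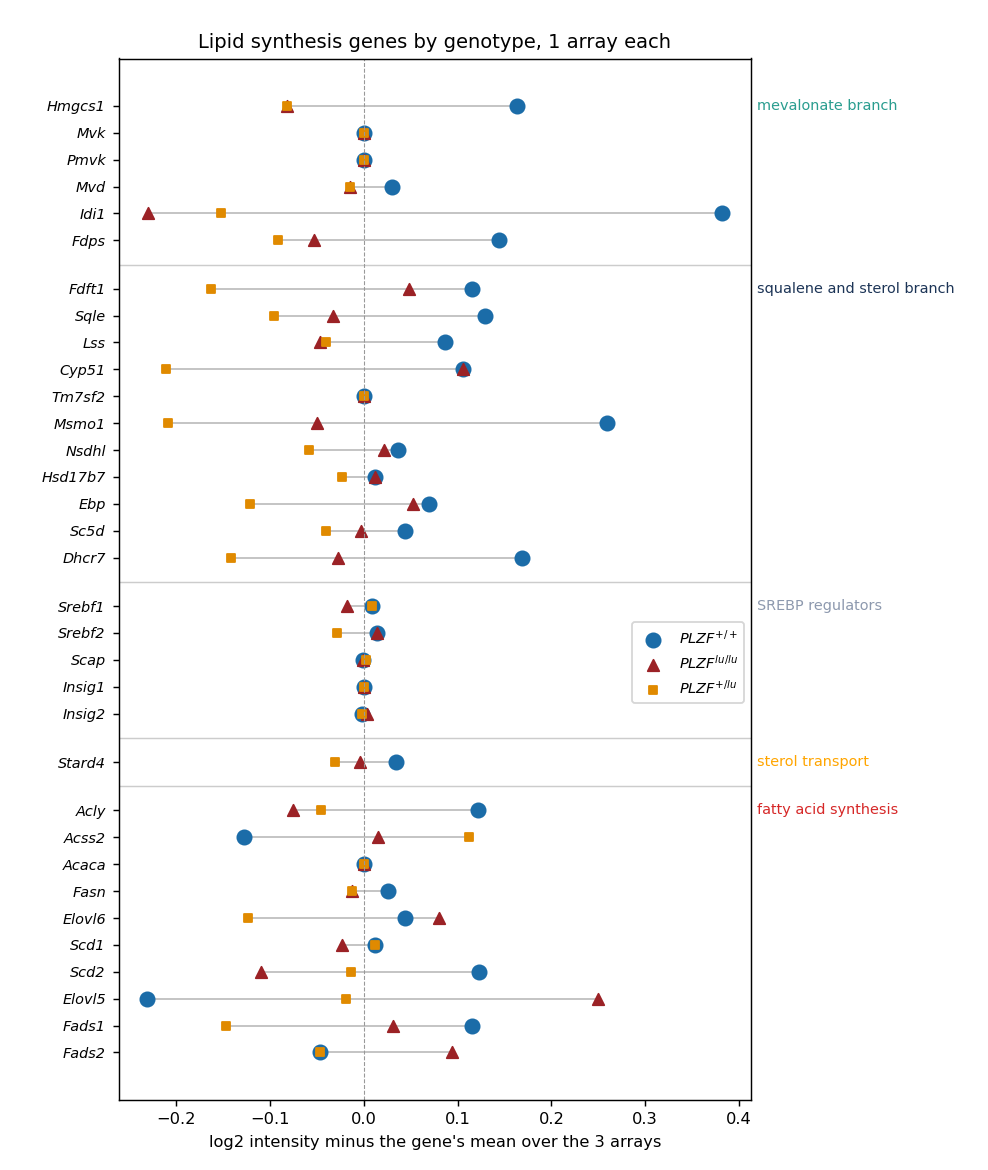
Each row is 1 of the 33 measured genes, grouped by role, and the horizontal axis is the log2 intensity minus the gene's mean over the 3 arrays; the PLZF +/+ array is drawn as circles, PLZF +/lu as squares and PLZF lu/lu as triangles, so there are no error bars. The square is the leftmost symbol at 9 of the 11 genes of the squalene and sterol branch, the SREBP regulators span at most 0.04, and Idi1 and Elovl5 have the widest ranges, 0.61 and 0.48.

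The first enzymes of the sterol route lead from acetyl-CoA to farnesyl diphosphate. Idi1, the isomerase that makes the starter unit of isoprenoid chains, gave an intensity of 372 (PLZF +/+), 257 (PLZF +/lu) and 243 (PLZF lu/lu). Both mutant arrays were thus low, with log2 differences of 0.53 and 0.61 from PLZF +/+, and it was the 1 member past 1.5-fold between PLZF +/+ and PLZF lu/lu. Its dimmer probe set gave 261, 210 and 213 in the same order, a log2 difference of 0.29 between PLZF +/+ and PLZF lu/lu, with PLZF +/lu lowest by 0.02. Hmgcs1, which condenses acetyl units into HMG-CoA, was at 1057 in PLZF +/+ and 892 on both other arrays, 1.19-fold lower. Fdps, which joins the units into farnesyl diphosphate, was at 552, 469 and 481. Those genes were highest in PLZF +/+, and the values of the mutant arrays lay close together. Mvd, the decarboxylase, was at 429, 416 and 416. The kinase genes Mvk and Pmvk had the same value on all arrays, 439 and 166.

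The squalene and sterol branch held most of the genes at which PLZF +/lu was lowest, 9 of 11 in the deposited values. This is 81.8%, against 17.4% of genes above the background level. The share of this branch alone was not computed after the scalings. For the 17 enzymes of the mevalonate and sterol branches it was 64.7%, 64.7% and 94.1% after quantile normalization, loess and centring. All genes then reached 36.2%, 45.8% and 71.6%. The genes of the branch are given in the order of the route. Fdft1, squalene synthase, gave an intensity of 969 (PLZF +/+), 799 (PLZF +/lu) and 925 (PLZF lu/lu). Its second probe set was at 907, 855 and 907. Sqle, squalene epoxidase and a slow step of the route, was at 167, 143 and 149. On both, PLZF +/lu was the lowest array, by 0.21 and 0.06 on the log2 scale. Lss, which closes the ring to lanosterol, was at 366, 335 and 334, so that the mutant arrays were level. Cyp51, the demethylase of lanosterol, was at 193 (PLZF +/+), 155 (PLZF +/lu) and 193 (PLZF lu/lu). It was the sterol gene with the widest gap below both others, 0.32 on the log2 scale or 1.25-fold. The gene is dim, and with 32 added to each intensity the gap was 0.27. Tm7sf2, a sterol reductase, was at 253 on all arrays.

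At each of the later enzymes PLZF +/lu was the lowest array, and PLZF +/+ was the highest or level with PLZF lu/lu. Msmo1, the methyl sterol oxidase, was at 598 (PLZF +/+), 432 (PLZF +/lu) and 483 (PLZF lu/lu), 1.38-fold lower in PLZF +/lu than in PLZF +/+. Nsdhl, which acts with it to remove methyl groups, was at 673, 631 and 666. Hsd17b7, the last enzyme of that removal, was at 198, 193 and 198. The differences at the last 2 genes were under 0.10 on the log2 scale. Ebp, the sterol isomerase, was at 800, 701 and 791. Sc5d, a desaturase, was at 994, 938 and 962. Dhcr7, a reductase of the last steps, was at 1227, 990 and 1071, 1.24-fold lower in PLZF +/lu than in PLZF +/+. Stard4, a carrier of cholesterol between membranes, was at 226, 216 and 221.

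Taking both branches, PLZF +/lu was lower than PLZF +/+ at 14 of 17 sterol pathway enzymes, equal at 3 and higher at none, with a median log2 difference of -0.19 where that of all genes was 0.00. It was lower at 23.6% of all measured genes and higher at 21.2%, and lower at 36.4% of the genes above the background level and higher at 21.2%. More than 1.2-fold lower were 5 of them, Idi1, Msmo1, Cyp51, Dhcr7 and Fdft1, and no other member of the 33. This threshold was passed in that direction by 3.9% of all measured genes and by 6.16% of those above the background level. With quantile normalization 3 of the 17 passed it, against 3.08% of all genes. In the deposited values no member was higher in PLZF +/lu than in PLZF +/+ by that much, against 2.03% of all genes. PLZF +/lu was lower than PLZF lu/lu by more than 1.2-fold at Cyp51 and Elovl5, against 1.8% of all genes. Between PLZF +/+ and PLZF lu/lu, the sterol enzymes were higher in PLZF +/+ at 12 genes and equal at 5, with a median of 0.05. Of all genes 24.9% were higher there and 16.9% lower, and of those above the background level 35.7% and 19.5%. Idi1 and Msmo1 were more than 1.2-fold higher there, against 4.26% of all genes. The set of 17 enzymes was formed after the values were seen. It leaves out the sterol reductase gene Lbr, which was higher in PLZF +/lu than in PLZF +/+ by 0.17 on the log2 scale. Lbr is 1 of 15 further measured genes of the wider sterol route. Of these, 10 were lower in PLZF +/lu, 1 was higher and 4 were equal.

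**Figure D2:**
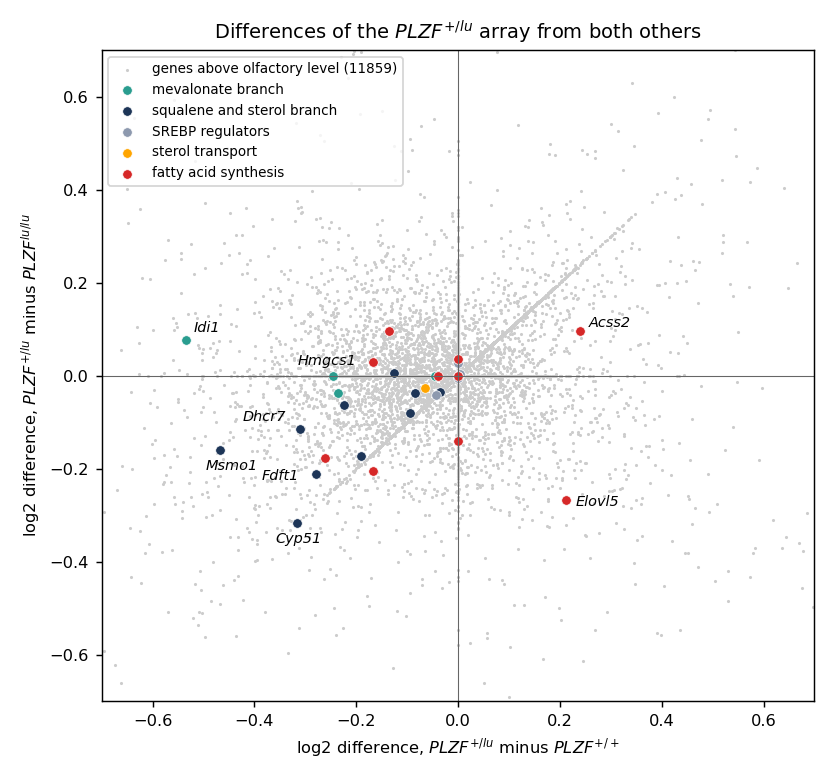
Log2 difference of PLZF +/lu from PLZF +/+ (horizontal axis) against that from PLZF lu/lu (vertical axis) for the 33 members in colour by role and for the 11859 genes above the background level in grey, of which 133 lie outside the axes at 0.7; each point rests on 1 array per genotype. Genes in the lower left have PLZF +/lu below both others: Cyp51, Msmo1, Fdft1 and Dhcr7 lie there, Idi1 lies just above the horizontal line, and Acss2 is at the upper right.

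Promoters of the sterol enzymes were searched because PLZF +/lu was lower than PLZF +/+ at 14 of the 17 measured enzymes, with the other 3 equal. Of the 34 genes, 27 have 35 windows in the RefSeq promoter table (GRCm38.p6), each from 250 bases before to 50 after a transcription start. The sterol enzyme genes Fdps, Fdft1 and Sqle have no window and were not searched. The letters searched on both strands were TCACNCCAC, the core of the classical sterol regulatory element, CCAAT, bound by NF-Y, and GGGCGG, bound by Sp1; none of the 3 contains another. The sterol letters were in the window of Hmgcs1 and of no other member, and in 1.24% of all 32851 windows. Only these exact letters were counted, so an element with other letters would not be seen. CCAAT was in 14 of 18 windows of 15 sterol enzymes, Acat2 included (77.8%), and in 37.4% of all windows, and GGGCGG in 15 of 18 (83.3%) and in 35.7%. Among the 27 genes 22 had CCAAT in at least 1 window (81.5%, against 41.1% of all 27025 genes with a window). These include Mvk, Pmvk, Tm7sf2 and Insig1, whose deposited values were equal on all arrays, as were those of 46.8% of all measured genes. Scaling breaks such ties, so they do not show that the transcripts were level. The shares of all windows and of all genes with a window count genes at any level of expression. Those of genes above the background level were not computed, so no excess is read as particular to the sterol route. A match describes the sequence and is no evidence of binding in these cells.

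The 250 bases before the start are printed 5′ to 3′ on the strand of the gene for Hmgcs1, which has the sterol letters, for Idi1, Cyp51 and Msmo1, which were more than 1.2-fold lower in PLZF +/lu than in PLZF +/+, and for Insig1, which was equal on all arrays. Capitals mark CCAAT or its reverse complement ATTGG and, in Hmgcs1, the sterol letters from 137 to 129 bases before the start.
Hmgcs1 (chr13:119690101-119690350, plus strand): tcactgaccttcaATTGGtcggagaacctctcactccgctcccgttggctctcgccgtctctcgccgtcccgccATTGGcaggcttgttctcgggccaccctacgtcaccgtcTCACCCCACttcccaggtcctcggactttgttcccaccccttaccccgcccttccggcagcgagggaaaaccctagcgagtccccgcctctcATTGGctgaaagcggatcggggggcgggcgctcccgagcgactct
Idi1 (chr13:8885356-8885605, plus strand): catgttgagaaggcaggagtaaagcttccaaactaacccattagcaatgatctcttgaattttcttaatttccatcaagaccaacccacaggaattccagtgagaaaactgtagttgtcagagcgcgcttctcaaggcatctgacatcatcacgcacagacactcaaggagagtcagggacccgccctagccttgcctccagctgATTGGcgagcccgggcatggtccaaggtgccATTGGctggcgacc
Cyp51 (chr5:4104698-4104947, minus strand): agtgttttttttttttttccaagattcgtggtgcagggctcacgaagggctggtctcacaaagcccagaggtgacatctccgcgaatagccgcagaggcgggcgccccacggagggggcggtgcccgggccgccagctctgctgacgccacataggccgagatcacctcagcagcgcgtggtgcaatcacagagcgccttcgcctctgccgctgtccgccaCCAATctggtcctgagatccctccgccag
Msmo1 (chr8:64733579-64733828, minus strand): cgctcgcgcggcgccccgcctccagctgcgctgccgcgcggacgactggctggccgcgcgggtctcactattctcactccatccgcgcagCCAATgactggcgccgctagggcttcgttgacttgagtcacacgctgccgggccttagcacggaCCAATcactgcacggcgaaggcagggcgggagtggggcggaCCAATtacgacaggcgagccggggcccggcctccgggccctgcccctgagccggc
Insig1 (chr5:28071162-28071411, plus strand): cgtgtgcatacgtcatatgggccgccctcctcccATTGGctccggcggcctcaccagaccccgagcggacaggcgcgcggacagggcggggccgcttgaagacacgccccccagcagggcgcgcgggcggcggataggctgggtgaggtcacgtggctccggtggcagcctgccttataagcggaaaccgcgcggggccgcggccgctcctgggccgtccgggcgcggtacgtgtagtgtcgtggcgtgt

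Msmo1 has CCAAT 3 times in this stretch, all on the strand of the gene and beginning 160, 96 and 55 bases before the start, and Hmgcs1 has it 3 times on the opposite strand. Idi1 has it at 45 and 14 bases, also on the opposite strand, and Cyp51 once, at 29 bases on the strand of the gene. Insig1 has it once, at 216 bases on the opposite strand.

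The genes that regulate the pathway differed less than the enzymes. Srebf2 gave an intensity of 1508 (PLZF +/+), 1465 (PLZF +/lu) and 1508 (PLZF lu/lu), a gap of 0.04 on the log2 scale. Srebf1 was at 821, 821 and 805. Scap, the escort protein, was at 1588, 1593 and 1588. The inhibitor Insig1, itself a known target of SREBP, was at 556 on each array, and Insig2 was at 926, 926 and 930. No regulator had a range over 0.04 in the deposited values; with quantile normalization Insig1 was higher in PLZF +/lu than in PLZF +/+ by 0.06.

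The enzymes of fatty acid synthesis did not share 1 order of the genotypes. Of 10 measured genes PLZF +/lu was below both others at 2, above both at 1 and between at 3. At the remaining 4 it was equal to another array. Among genes above the background level PLZF +/lu was below both at 17.4%, above both at 11.7% and between at 17.5%. With 10 genes, the counts do not set fatty acid synthesis apart from these shares. The median log2 difference between PLZF +/lu and PLZF +/+ was -0.02. Acly, which makes acetyl-CoA from citrate, was at 1547 (PLZF +/+), 1378 (PLZF +/lu) and 1350 (PLZF lu/lu). Acss2, which makes it from acetate, ran the other way, at 1419, 1676 and 1567. It is the 1 member with PLZF +/lu above both others by a visible margin, 0.10 on the log2 scale. Acaca, the carboxylase that commits acetyl-CoA to fatty acids, was at 425 on all arrays, and its dimmer probe set was at 332, 335 and 332. Fasn, the synthase, was at 2026, 1972 and 1972. The core of the pathway was thus nearly level.

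The elongases and desaturases ranged from nearly level to the widest difference of the fatty acid genes, that of Elovl5. Elovl5, an elongase of polyunsaturated fatty acids, was at 2955 (PLZF +/+), 3423 (PLZF +/lu) and 4123 (PLZF lu/lu). It was the 1 member more than 1.2-fold lower in PLZF +/+ than in PLZF lu/lu, by 1.40-fold, against 2.4% of all genes, and PLZF +/lu lay between. Of the 5 markers of CD4+CD8+ thymocytes, Cd8a and Cd8b1 had the same order of arrays and Dntt, Ptcra and Rag2 did not. The summed intensity of the 5 was 2038, 3155 and 3987, most of it from Cd8b1 alone, at 1290, 2263 and 2958. The part of such cells in the result was not tested. Elovl6, an elongase of saturated chains, was at 820, 730 and 841. Fads1, a desaturase of polyunsaturated chains, was at 609, 508 and 574. On both, PLZF +/lu was the lowest array, by 0.17 and 0.18 on the log2 scale. Fads2, its partner desaturase, was at 125, 125 and 137. Scd2, a stearoyl-CoA desaturase, was at 7312, 6653 and 6222. Its relative Scd1, prominent in liver and fat tissue, was at 42.9, 42.9 and 41.9, below the background level, and was the sole member there.

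Of the wider sterol route, 15 of 21 listed genes of isoprenoid branches, sterol reduction, uptake and lysosomal release were measured. PLZF +/lu was lower than PLZF +/+ at 10 of them, higher at 1 and equal at 4, with a median log2 difference of -0.05, where 36.4% of genes above the background level were lower. Lbr, a lamin receptor that is also a sterol reductase, was at 3344 (PLZF +/+), 3774 (PLZF +/lu) and 4725 (PLZF lu/lu), so that PLZF +/+ was lowest and PLZF lu/lu highest. Cyb5r3, a reductase that feeds electrons to sterol oxidation steps, was at 1650, 1395 and 1321. Of 12 measured genes that process SREBP or degrade sterol enzymes, PLZF +/lu was below both others at 5 (41.7%), against 11.4% of all genes and 17.4% of those above the background level. This share is close to the 42.4% of the members in the same deposited values. All genes reached 45.8% after loess and 71.6% after centring, where the share of this list was not computed. Nothing is therefore read from it about the list. Sec23a, of the coat that carries vesicles to the Golgi, was at 1067, 847 and 919, and Syvn1, a ubiquitin ligase of the endoplasmic reticulum, at 1274, 1107 and 931.

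Genes that remove or store sterol did not have PLZF +/lu lowest as a group. Of 16 measured liver X receptor targets and efflux or storage genes, it was below both others at 3 (18.8%, against 17.4% of genes above the background level). It was above both at 6 (37.5%, against 11.7%), at all but Abca1 by 0.05 or less on the log2 scale. The median log2 difference of PLZF +/lu from PLZF +/+ was 0.00. Abca1, the pump that loads cholesterol onto lipoproteins, was at 596 (PLZF +/+), 756 (PLZF +/lu) and 463 (PLZF lu/lu). PLZF +/lu was thus the highest array, by 0.34 on the log2 scale. Rxra, the partner receptor, was at 785, 463 and 396, which is 1.98-fold higher in PLZF +/+ than in PLZF lu/lu. Of 32 measured further genes of fatty acid and glycerolipid synthesis, PLZF +/lu was lower than PLZF +/+ at 14, higher at 2 and equal at 16. The share lower is near the 36.4% of genes above the background level. Hacd3 and Hacd2, dehydratases of chain elongation, were at 1915, 1314 and 1608 and at 1851, 1377 and 1440.

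Genes of cell division also had PLZF +/lu lowest. Of 16 measured proliferation genes PLZF +/lu was below both others at 12 (75.0%, against 17.4% of genes above the background level). All genes reached 45.8% after loess and 71.6% after centring, where the share of this list was not computed. PLZF +/lu was lower than PLZF +/+ at 15, with a median log2 difference of -0.43, and by more than 1.2-fold at 10. Among genes above the background level 36.4% were lower and 6.16% were lower by more than 1.2-fold. Mki67, the marker of cycling cells, was at 605 (PLZF +/+), 402 (PLZF +/lu) and 676 (PLZF lu/lu), and Bub1, a mitotic checkpoint kinase, at 146, 87.0 and 146. The PLZF +/lu value of Bub1 lies under the background level of 108, so the size of that difference cannot be read. The summed intensity of the list was 12980, 9907 and 11384, and that of the 17 sterol enzymes 9454, 8207 and 8663, in the same order of arrays. Such sums weigh bright probe sets most. Pcna alone gave 5252, 3646 and 4116 of the first sum, and Mki67 did not have the order of the sums. Whether the share of dividing cells has a part in the sterol result was not tested. Housekeeping genes differed little, with 9 measured members, a largest range of 0.08 and a median of -0.01.

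**Figure D3:**
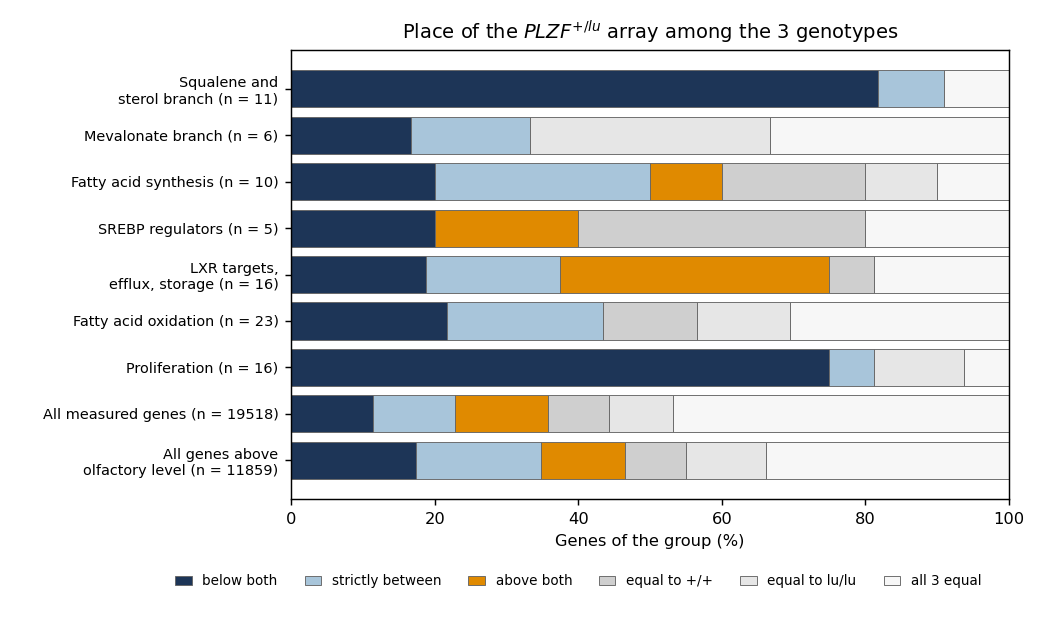
Share of the genes of each group (horizontal axis, percent) by the place of the PLZF +/lu array among the 3 genotypes in the deposited values, with 1 array per genotype and values within 1e-06 on the log2 scale taken as equal. The dark part, PLZF +/lu below both others, covers 81.8% of the squalene and sterol branch and 75.0% of the proliferation genes, but 17.4% of all genes above the background level.

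**Figure D4:**
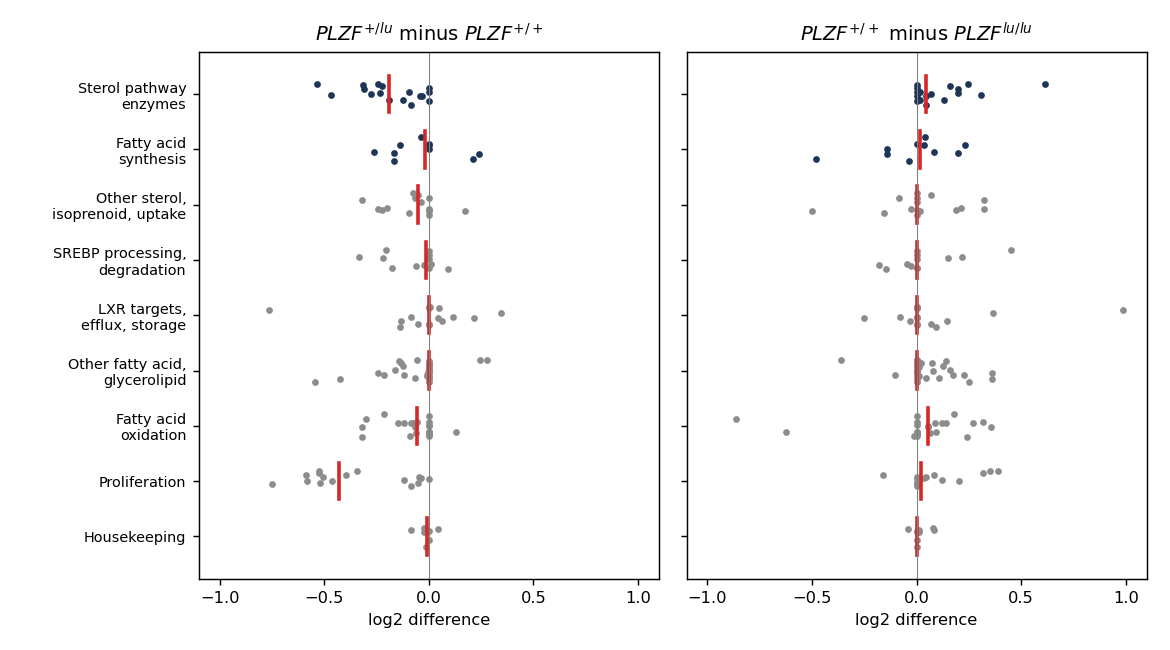
Log2 differences of single genes between PLZF +/lu and PLZF +/+ (left) and between PLZF +/+ and PLZF lu/lu (right) for the members (dark points) and the other lists (grey points), 1 array per genotype, with each list's median as a red bar. On the left the medians are -0.19 for the sterol pathway enzymes and -0.43 for the proliferation genes and lie within 0.06 of 0 for the other lists; on the right all medians lie within 0.05 of 0.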

How the data were processed

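RNA of CD4+CD8- thymocytes was hybridised to 3 arrays. The authors made the values from the scans in GenePattern (modules ExpressionFileCreator, then MultiplotPreprocess and Multiplot) and removed normalization controls; the deposited table holds linear intensities of 24800 probe sets. The submitters' notes name the build mm 8; how background was corrected and probes were summarised is not stated there or in the methods.

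Intensities were used as deposited, on the log2 scale. Gene names come from the platform's annotation, which lists 1 gene for 21065 probe sets, several for 1187 and none for 2548; RefSeq (GRCm38.p6) gave current symbols by gene identifier. Where a gene had several probe sets, the brightest by mean log2 value stood for it. Values within 1e-06 were taken as equal. Members, lists and motifs were chosen with earlier results of these data known. Every measured member is given; of other lists, genes past 2-fold between any pair of arrays, or the 2 above the background level with the largest range. Alternatives were quantile normalization, median centring, cyclic loess, 32 added, a filter on dim probe sets, the mean over probe sets, probe sets with several symbols, other thresholds, the mean of PLZF +/+ and PLZF +/lu, and a tolerance of 0.05. No test was possible; precision is limited by having 1 array per genotype. The counting of places and folds was tested on simulated data. Python 3.11.15, numpy 2.4.6, pandas 2.3.3, matplotlib 3.10.9, R 4.3.3 and limma 3.58.1 (normalization only) were used. The unmatched value columns numbered 0.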

Additional observations from a re-analysis of the deposited data

How the results depend on the processing

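With 1 array per genotype no library could be left out, and a difference was taken as moved when it changed by more than 0.05 on the log2 scale. The median differences of the members moved by no more than that under any scaling, offset, filter or annotation, and of 39 member differences of at least 0.1 none changed sign. The number of members past 2-fold stayed at 0, with 1 past 1.5-fold (Idi1; 1.43% of all genes) and 3 past 1.2-fold (Idi1, Msmo1 and Elovl5; 6.66%). The place counts moved most, because scaling breaks the ties of the deposited values. PLZF +/lu lay above both others at 7 members after quantile normalization, 6 after cyclic loess, and 1 after centring on the median or with differences under 0.05 counted as equal. It lay strictly between at 10, 11 and, with that tolerance, 3. It lay below both at 26 members and 16 of the 17 sterol enzymes after centring, where 71.6% of all genes did. With the tolerance it lay below both at 9 members (8 after quantile normalization, 9 after loess), and at 6 sterol enzymes after quantile normalization. Sterol enzymes past 1.2-fold below PLZF +/+ numbered 3 after quantile normalization and 4 with the mean over probe sets. All 14 members with PLZF +/lu lowest stayed so under the 3 scalings, the offset, the dim filter and the mean over probe sets; Srebf2 left when probe sets with several symbols were used. The results on the 17 enzymes, and scaling with the tolerance, were chosen after seeing the data.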

Other observations

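Fatty acid oxidation, the route that breaks down what the enzymes above build, had 23 measured genes. PLZF +/lu was lower than PLZF +/+ at 12 of them, higher at 1 and equal at 10, with a median log2 difference of -0.06, and PLZF +/+ was higher than PLZF lu/lu at 13 and lower at 3. Of all genes above the background level, 36.4% were lower and 21.2% higher in PLZF +/lu than in PLZF +/+, and 35.7% were higher and 19.5% lower in PLZF +/+ than in PLZF lu/lu. Acadl, the long-chain acyl-CoA dehydrogenase, was at 151 (PLZF +/+), 122 (PLZF +/lu) and 274 (PLZF lu/lu). It was thus 2.24-fold lower in PLZF +/lu than in PLZF lu/lu and was the only gene of the list past 2-fold. Its PLZF +/lu value lies close to the background level of 108, so the size of that fold is uncertain. Cpt1a, which admits long-chain fatty acids to mitochondria and was chosen after its values were seen, was at 1806, 1975 and 2782 in the same order. Both were highest in PLZF lu/lu, as was the elongase gene Elovl5.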
